A study of Homo sapiens with 6 samples.

Results

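EPC1 and 9 other subunits of the NuA4/TIP60 histone acetyltransferase complex were followed in sorted ovarian carcinoma cells, with all 28 probe sets annotated to these 10 genes taken from a table of 54613 probe sets and 19775 genes. IGROV1 cells are a long-established line from a human ovarian carcinoma. The arrays compared its side population (SP, labelled side population cell), the cells that keep little Hoechst 33342 because membrane pumps export the dye, with the non-side population (non-SP, labelled non-side population cell). Each group had 3 samples, described as biological replicates. Both groups came from the same line and medium and had no treatment other than dye staining and sorting, so an effect of retained dye and any other difference between the groups cannot be told apart. The labels do not say whether the samples came from separate cultures, so p-values measure only the spread between these samples, which may be technical. EPC1 was chosen because of its SP against non-SP difference in these arrays. Its differences are therefore given as a description with no test, and the other 9 genes were chosen as subunits of the same complex.

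NuA4 is a large assembly that acetylates histones H4 and H2A and, in mammals, also exchanges the histone variant H2A.Z into nucleosomes. EPC1 and its paralog EPC2 are scaffold subunits that hold the acetyltransferase KAT5 (TIP60), the histone reader ING3 and the small subunit MEAF6 together and join them to the rest of the complex. TRRAP binds transcription activators, EP400 is the ATPase of the H2A.Z exchange, DMAP1 is a subunit shared with the related SRCAP remodeller, and BRD8 and MORF4L1 carry domains that read modified histones. The complex acts in transcription and in the response to DNA breaks.

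Values are log2 expression per probe set, normalized by the authors with RMA, and differences are SP minus non-SP with standard errors and 95% intervals from limma fitted over all 54613 probe sets. A log2 level of 1 probe set cannot be compared with that of another, because probes differ in brightness. On each array 3 control probe sets with no matching RNA marked the background, with the highest of them between 3.17 and 3.53. This line lay under the first quartile of every array, so most of all probe sets exceed it. A level above background therefore does not by itself show that a transcript was detected. Of the 28 member probe sets, 26 lay above background on all 6 arrays, and 25 lay above the first quartile on all 6. These shares were not counted over all probe sets. The arrays fell into 2 sets along the first principal component of all probe sets, which held 38.1% of the variance. Set A held SP 1, non-SP 1 and non-SP 3, and set B held SP 2, SP 3 and non-SP 2, so that each set mixes both groups but unequally. The signal of ACTB probes at the 3' end minus that at the 5' end, a measure of RNA quality, was 2.02 to 2.29 in set A and 2.46 to 2.55 in set B. The sets were read from the data and are not groups of the study. All 7 epithelial marker genes, among them EPCAM, KRT18 and PAX8, were above background on 6 of 6 arrays. Their differences ran from -0.71 (SE 0.22) for KRT8, with every SP array below every non-SP array, to 0.79 (SE 0.31) for CDH1. None of the 7 passed an adjusted p of 0.05 (limma, smallest adjusted p = 0.611). Of 9 measured markers of leukocytes, endothelium and fibroblasts, 7 were also above background on 6 of 6 arrays, among them the collagen gene COL1A1, with means of 6.97 in SP cells and 7.07 in non-SP cells. The leukocyte markers CD3E and PTPRC were above it on 0 and 1 of the 6. The summed signal of the 9 markers on the log2 scale was 8.69 to 8.75 in SP cells and 8.76 to 8.88 in non-SP cells, with differences of single markers between -0.29 and 0.44, and its part in the results was not tested. Of the dye pumps, ABCB1 (P-glycoprotein) had log2 levels of 8.61, 10.16 and 10.22 in SP cells and 4.26, 5.81 and 4.59 in non-SP cells. ABCG2, the other dye pump measured, had levels of 4.03, 5.60 and 4.53 in SP cells and 4.73, 5.37 and 4.59 in non-SP cells, with overlapping groups and a difference of -0.18 (SE 0.42).

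Of 4 EPC1 probe sets, 3 had higher values in SP cells by about the same amount, and the remaining 1 did not. Probe set 234969_s_at, the brightest on average, had log2 levels of 10.59, 10.74 and 10.85 in SP cells, against 8.62, 8.49 and 9.14 in non-SP cells. The groups were separated by a gap of 1.45, wider than the whole range within either group. The difference was 1.98 (SE 0.20), or 3.94-fold with a 95% interval of 2.84 to 5.48. Probe set 225417_at had levels of 9.02, 9.36 and 9.40 in SP cells and 6.90, 7.19 and 7.64 in non-SP cells, and differed by 2.02 (SE 0.22) or 4.04-fold. Probe set 223875_s_at had levels of 7.89, 7.60 and 7.65 in SP cells and 5.66, 5.27 and 5.87 in non-SP cells, and differed by 2.11 (SE 0.19) or 4.32-fold. For these 3 probe sets every SP array lay above every non-SP array. They held ranks 26, 22 and 18 among the 54613 differences ordered from the highest. In a sorted bulk sample, more cells with the transcript and more transcript per cell cannot be told apart.

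The remaining EPC1 probe set, 238633_at, had levels of 6.91, 7.02 and 7.19 in SP cells and 7.00, 7.11 and 7.64 in non-SP cells. Its groups overlapped, and its difference of -0.21 had a 95% interval of -0.69 to 0.27. It lay above background on all 6 arrays. The positions of the probes within the gene were not analysed here, so whether 238633_at reads another part or another transcript of EPC1 was not tested. The mean of all 4 probe sets differed by 1.47 (SE 0.17).

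The EPC1 values varied more among non-SP arrays than among SP arrays. The standard deviation was 0.31 to 0.38 over the 3 non-SP arrays and 0.13 to 0.21 over the 3 SP arrays for all 4 probe sets. Non-SP 3 was the highest of the non-SP arrays in every EPC1 probe set, including 238633_at. SP 1 was the lowest SP array in 3 of the 4 and the highest in 223875_s_at. Within array set A the 3 probe sets with separated groups differed by 1.71, 1.75 and 2.12, and within set B by 2.31, 2.19 and 2.35. Leaving out 1 sample at a time moved the difference of 234969_s_at between 1.85 and 2.17, and those of 225417_at and 223875_s_at between 1.84 and 2.22 and between 1.94 and 2.25.

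**Figure D1:**
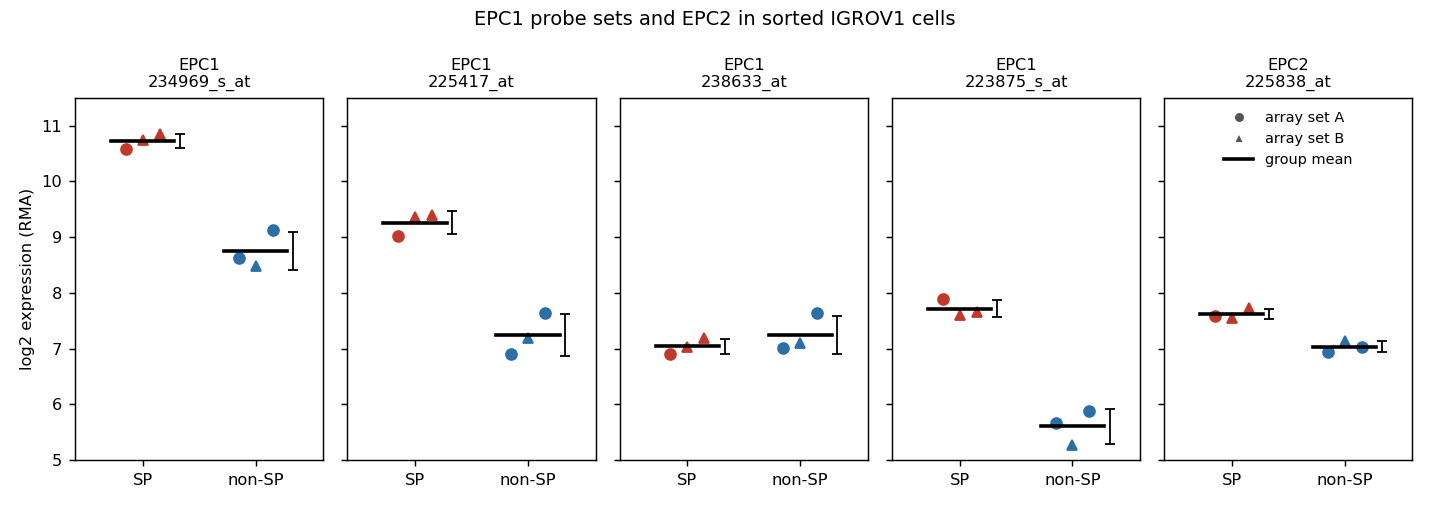
Log2 expression (vertical axis) of the 4 EPC1 probe sets and of EPC2 on each array, with SP arrays left and non-SP arrays right in each panel. Circles are array set A and triangles array set B, horizontal lines are group means, and bars show the SD over 3 arrays; 3 EPC1 probe sets and EPC2 have separated groups, whereas 238633_at does not.

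EPC2, the paralog that can take the place of EPC1 as scaffold, had levels of 7.59, 7.56 and 7.72 in SP cells and 6.93, 7.14 and 7.03 in non-SP cells on its single probe set. Every SP array again lay above every non-SP array, with a gap of 0.42. The difference of 0.59 (SE 0.12) corresponds to 1.50-fold (95% interval 1.22 to 1.85) and had the smallest adjusted p of the members tested, but it did not pass (limma, adjusted p = 0.35). It was 0.61 within array set A and 0.50 within set B, and it ranged from 0.54 to 0.64 when 1 sample was left out. The adjusted p over 14 alternatives ran from 0.216 to 0.735. Besides EPC1 and EPC2, TRRAP was the other member with a probe set whose groups did not overlap, by a gap of 0.016. The EPC1 and EPC2 differences were not tested against each other, since EPC1 was chosen for its difference.

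The annotated starts of these paralogs share a short stretch, shown because both genes had separated groups. RefSeq (GRCh38.p14) lists 2 EPC1 starts, 31611 bases apart on the minus strand of chromosome 10, and 1 EPC2 start on the plus strand of chromosome 2, each taken as a window from 250 bases before to 50 bases after the start. The window of the downstream EPC1 start and that of EPC2 hold an identical run of 26 bases, in capitals here with 2 flanking bases on each side, at chr10:32347119-32347148 (minus strand) and chr2:148644751-148644780 (plus strand).
EPC1: ttTAATGTCCGCCATGTTGGCCATGGCGta
EPC2: ggTAATGTCCGCCATGTTGGCCATGGCGca
The run lies at bases 13 to 38 of the EPC1 transcript and 3 to 28 of the EPC2 transcript, counted from the start as base 1, in the transcribed part of each window. Of 35116 windows in the table, 3 hold it on either strand, the third belonging to EPC1-AS1, an antisense gene that overlaps the EPC1 window. The upstream EPC1 window shares no run longer than 8 bases with that of EPC2. The stretch includes the letters GCCATNTTG, the core recognised by the factor YY1, which occur on either strand in 2.92% of all windows. Windows were listed for 8 of the 10 members (not TRRAP and ING3). The letters were taken from the stretch shared by EPC1 and EPC2, so their presence in these genes follows from that choice. They were also found in BRD8 and MEAF6, and whether members hold them more often than other genes was not tested. A match in letters is not a measured binding site, and no probe set was named for EPC1-AS1.

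KAT5, the acetyltransferase of the complex, did not differ detectably. Its brightest probe set, 214258_x_at, had levels of 6.96, 6.76 and 6.57 in SP cells and 7.17, 6.80 and 6.59 in non-SP cells. The values of both groups ran over nearly the same range. The difference was -0.092 (95% interval -0.56 to 0.37, limma adjusted p = 0.958). The other 2 KAT5 probe sets, 206689_x_at and 209192_x_at, differed by -0.23 and -0.19, with overlapping groups and intervals that span 0. All 3 have the suffix _x_at, which marks probes that can also bind other transcripts.

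ING3, whose PHD finger binds methylated histone H3, had 4 probe sets that went in both directions. The pair with the highest levels, 242293_at and 205070_at, differed by 0.17 (SE 0.31) and 0.24 (SE 0.33). Probe set 231863_at had levels of 4.74, 3.93 and 3.75 in SP cells and 4.90, 4.54 and 5.07 in non-SP cells, with SP 1 inside the non-SP range. Its difference of -0.70 (SE 0.29) did not pass after adjustment (limma, adjusted p = 0.683), and it was the lowest of all 28. Probe set 230719_at was at or under background on all 6 arrays and gives no level. MEAF6, a subunit that KAT5 shares with other acetyltransferase complexes, also gave mixed values. Its brightest probe set, 218165_at, lay at 8.49, 8.53 and 8.40 in SP cells and 8.60, 8.52 and 8.60 in non-SP cells, and differed by -0.097 (95% interval -0.37 to 0.18). Probe set 228517_at lay at 6.89, 7.17 and 6.69 in SP cells and 6.96, 7.36 and 7.24 in non-SP cells, and differed by -0.27 (SE 0.18) with overlapping groups. Probe set 230293_at differed by 0.67 (SE 0.33, limma adjusted p = 0.742) with levels of 6.20, 7.12 and 7.13 in SP cells and 6.06, 5.78 and 6.61 in non-SP cells. That difference was -0.13 within array set A and 1.35 within array set B.

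TRRAP had levels of 8.74, 8.74 and 8.71 in SP cells and 8.26, 8.67 and 8.69 in non-SP cells on probe set 202642_s_at. The groups did not overlap, but only by that gap of 0.016, and the difference of 0.19 (SE 0.15) did not pass (limma, adjusted p = 0.872). The second TRRAP probe set, 214908_s_at, differed by 0.20 (SE 0.21) with overlapping groups. EP400 had 4 probe sets with differences between -0.26 (230629_s_at) and 0.066 (212376_s_at), and those of 212375_at and 230628_at were 0.0096 and -0.087. Its brightest, 230629_s_at, had levels of 8.71, 7.97 and 7.93 in SP cells and 8.75, 8.09 and 8.54 in non-SP cells. These values followed the array sets, with every array of set A above every array of set B. DMAP1 showed the same order on its single probe set, with levels of 7.30, 6.44 and 6.76 in SP cells and 7.59, 6.58 and 7.09 in non-SP cells. Its difference was -0.25 (SE 0.32) between the sort groups and 0.73 between array sets A and B within the sort groups, and within the sets the sort groups differed by -0.042 and 0.020.

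BRD8, a bromodomain protein, had 3 probe sets, 202227_s_at, 242265_at and 210352_at, with differences of 0.37 (SE 0.22), 0.14 (SE 0.16) and 0.29 (SE 0.22), all with overlapping groups. Its brightest, 202227_s_at, had levels of 10.43, 10.12 and 10.28 in SP cells and 10.20, 9.46 and 10.08 in non-SP cells, with non-SP 2 well under the rest. The dimmest, 210352_at, lay under the first quartile of all 6 arrays. MORF4L1, whose chromodomain binds methylated histone H3, had 3 probe sets with overlapping groups and differences of -0.028 (217982_s_at), -0.12 (224561_s_at) and -0.11 (221381_s_at). Probe set 217982_s_at had levels of 11.98, 11.85 and 11.89 in SP cells and 11.97, 11.80 and 12.02 in non-SP cells. The 95% interval of that difference was -0.32 to 0.27.

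**Figure D2:**
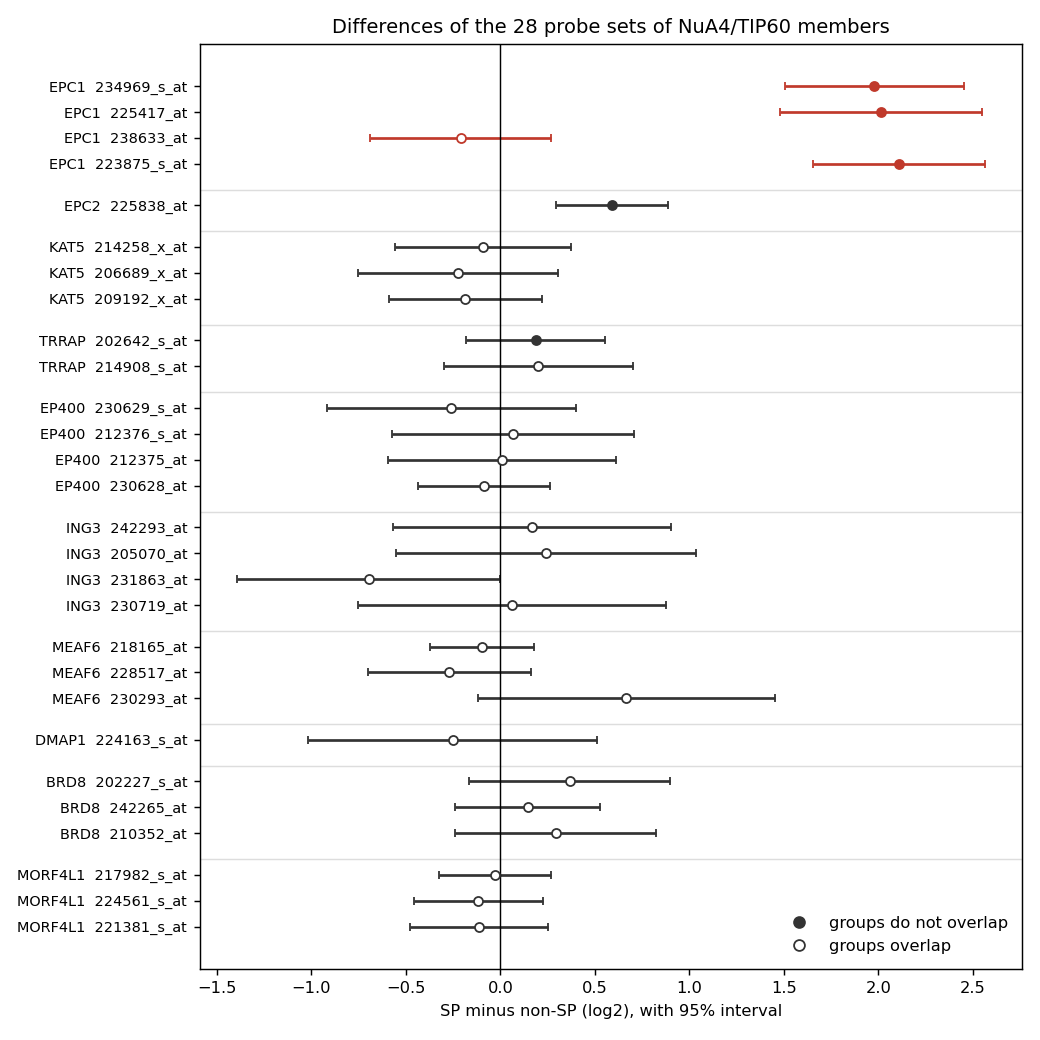
SP minus non-SP difference in log2 units (horizontal axis) of the 28 member probe sets, one per row, with 95% intervals from limma. EPC1 is in red, and filled points have groups that do not overlap. Of EPC1, 3 probe sets lie near 2 and 238633_at lies at -0.21, and the other members lie between -0.70 and 0.67.

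Outside EPC1, 0 of 24 member probe sets passed an adjusted p of 0.05 in limma, where 1 of all 54613 did (0.00183%). At an unadjusted p under 0.05, 1 of the 24 was higher in SP cells (EPC2), against 3.79% of all probe sets, and 1 was lower (ING3 231863_at), against 3.52%. Groups did not overlap for 2 of the 24 probe sets (8.33%), EPC2 and TRRAP 202642_s_at, both with SP above, against 12.5% of all probe sets in both directions and 5.59% with SP above. The median difference over the 24 was -0.009, with 12 above 0 and 12 below, and over all probe sets it was -0.017. With EPC1 included the count of separated groups was 5 of 28 and the median 0.036. Of the 24 differences, 21 were smaller than 0.5 in size. Only EPC1 among the 10 genes had any difference above 1, and it is the gene that was selected.

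Several members differed between the array sets, but their median set difference was no larger than that over all probe sets. Since set A holds fewer SP arrays than set B, the difference between the sets was taken within SP and within non-SP arrays and averaged. The median size of the difference over the 24 probe sets outside EPC1 was 0.19 between SP and non-SP cells and 0.17 between array sets. Over all probe sets these medians were 0.15 and 0.19. Of the 24, 13 differed more between array sets than between SP and non-SP cells, a share that was not counted over all probe sets. For 8 (33.3%) the array sets did not overlap, against 23.0% of all probe sets. The sets were defined on all probe sets, these included. The largest set differences were those of DMAP1 (0.73) and of ING3 205070_at (0.71), 242293_at (0.70) and 231863_at (0.67), all higher in set A. Those of the EPC1 probe sets 234969_s_at, 225417_at and 223875_s_at were 0.093, -0.14 and 0.38, and the sets overlapped. Because set B holds more SP arrays than non-SP arrays, a set difference also enters the SP minus non-SP difference. With the set as a block, EPC1 234969_s_at differed by 2.01 (SE 0.21), EPC2 by 0.55 (SE 0.12), BRD8 202227_s_at by 0.52 (SE 0.15) and ING3 231863_at by -0.47 (SE 0.16). The smallest adjusted p of the 24 in that fit was 0.242 (limma), where 0.00916% of all probe sets passed.

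**Figure D3:**
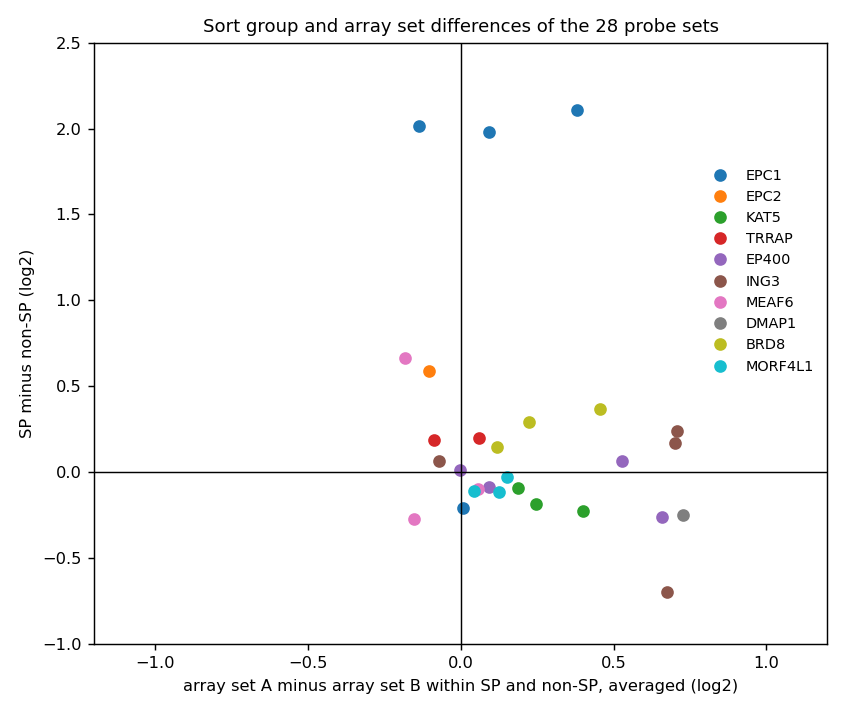
SP minus non-SP difference (vertical axis) against the difference between array sets A and B within the sort groups (horizontal axis), both in log2 units, with a point for each of the 28 probe sets coloured by gene. Of the 4 EPC1 points, 3 stand apart near 2 on the vertical axis, and 238633_at lies among the other members at -0.21. Points of ING3, DMAP1 and EP400 reach furthest to the right, higher in array set A by up to 0.73.

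The 10 further subunits that complete the complex gave a similar picture at 1 probe set per gene, the one with the highest mean. None passed an adjusted p of 0.05 (limma, smallest adjusted p = 0.702), where 1 of 19775 genes did (0.00506%). At an unadjusted p under 0.05, 1 was higher in SP cells and 0 were lower, against 3.07% and 3.71% of genes, and the same gene was the 1 with SP arrays above all non-SP arrays, against 4.78%. That gene was YEATS4, whose YEATS domain reads acylated histones, with levels of 8.88, 9.07 and 9.17 in SP cells and 8.30, 8.83 and 8.65 in non-SP cells. The difference was 0.44 (SE 0.17). JAZF1 differed by 0.47 (SE 0.29) with overlapping groups, and MRGBP, which binds MORF4L1, by -0.20 (SE 0.17). The median over the 10 was 0.013, with 6 above 0, against a median of -0.023 over all genes. A list of 5 genes held SRCAP, ACTR6 and ZNHIT1 of the SRCAP remodeller and the H2A.Z genes H2AZ1 and H2AZ2. Of these, 0 passed at either threshold and the differences lay between -0.082 and 0.15. Subunits that this remodeller shares with NuA4, such as DMAP1, were counted with NuA4, so the list does not cover the whole remodeller. SRCAP itself differed by 0.15 (SE 0.20), H2AZ1 by -0.041 (SE 0.11) and H2AZ2 by -0.082 (SE 0.21).

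The profile of EPC1 over the 6 arrays was compared with those of 9886 genes above the median level, each centred on its own mean. Likeness was the root mean square distance to probe set 234969_s_at in log2 units. The nearest were CREBRF (0.26), TIPARP (0.28), H3C11 (0.30), SERPINB9 (0.33) and GNG11 (0.37), and the median distance was 1.04. CREBRF, a regulator of the stress factor CREB3, had levels of 8.53, 8.46 and 8.68 in SP cells and 5.97, 6.64 and 7.16 in non-SP cells. TIPARP, an ADP-ribosyltransferase, had levels of 8.53, 9.04 and 9.23 in SP cells and 7.06, 6.38 and 7.82 in non-SP cells. All 5 genes had SP arrays above all non-SP arrays, as follows from a rule that seeks profiles like EPC1. The EPC1 probe sets 225417_at and 223875_s_at were nearer still, at 0.14 and 0.20, whereas 238633_at lay at 1.10 and EPC2 at 0.73.

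**Figure D4:**
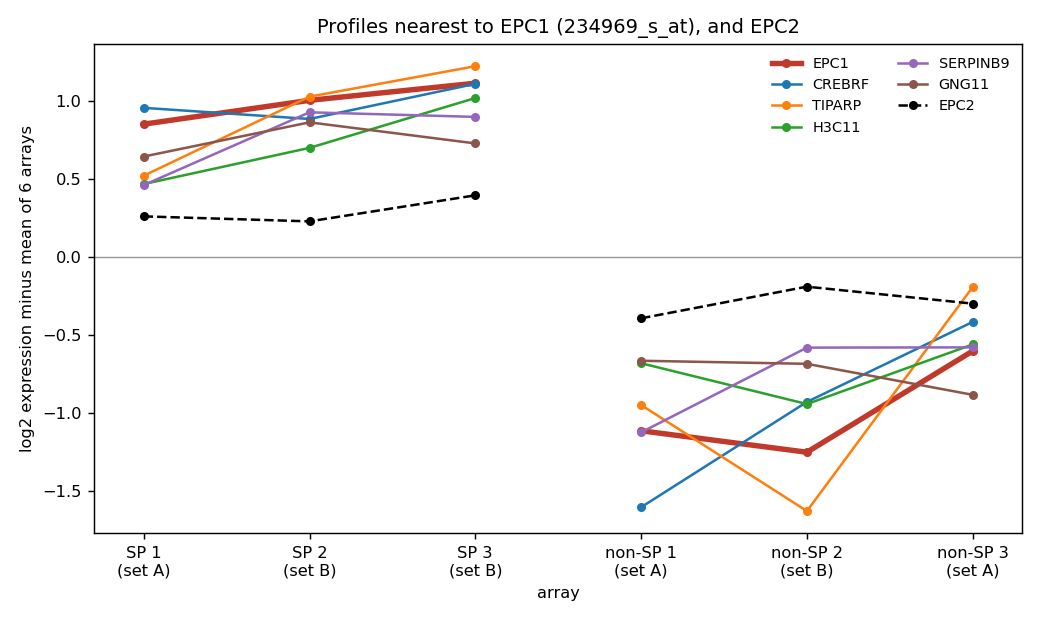
Log2 expression minus the mean over 6 arrays (vertical axis) for EPC1 234969_s_at, the 5 genes with the nearest profiles, and EPC2 (dashed), on each array (horizontal axis, SP arrays left). Lines join the arrays of a group only to follow a gene. The 5 genes share the direction of the group difference of EPC1 (1.98), with differences from 1.46 (H3C11) to 1.97 (CREBRF). Not all share its order of arrays within a group. GNG11 was lowest on non-SP 3 (6.25 before centring), the non-SP array where EPC1 was highest. EPC2 has the same order of groups with a smaller difference of 0.59.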

How the data were processed

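The deposited series matrix holds log2 expression per probe set for 6 arrays; the authors made them with RMA from the affy package in R 2.8.1, per the submitters' processing notes. RMA gives all arrays 1 shared distribution, which hides any overall change in RNA content. Per the labels' protocols, RNA of sorted cells was amplified from picogram amounts, which can widen the spread of dim transcripts. Precision is limited by the number of arrays.

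Of 54675 probe sets, 62 controls were left out and 54613 were tested: 41091 with 1 gene symbol in the platform annotation, 1801 with several and 11721 unnamed here. Symbols were matched by Entrez ID to RefSeq for 41037 probe sets, and 0 changed. limma 3.58.1 (R 4.3.3; lmFit, eBayes, no block) was run on all probe sets, two-sided, with Benjamini-Hochberg adjustment over all of them. The members and lists were chosen with earlier results of these data known. Background was to be read from B. subtilis control probe sets. For 24 of them, taken as spiked RNA, the median level on an array was 11.76 to 12.40, so the 3 TrpnX probe sets were used. On simulated data, with 200 of 54613 probe sets changed in each of 5 simulations, the fit recovered 25.4% of changes of 1 log2 unit, 87.2% of 2 and 98.8% of 4, with 35 false calls in all. The simulated noise was independent between probe sets and held no array sets, so these shares need not hold for the real arrays. On the real arrays ABCB1 differed by 4.78 and did not pass (limma at 1 probe set per gene, adjusted p = 0.120).

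The text names all member probe sets, up to 3 genes of each further list by unadjusted p, and the 5 profiles nearest to EPC1. The promoter stretch and the group of catalytic subunits were chosen after values were seen. Python 3.11.15, pandas 2.3.3 and matplotlib 3.10.9 read and drew the data. Alternatives were a replicate block, array weights, median centring, cyclic loess, a robust prior with an intensity trend, a filter on dim probe sets, the array set or the ACTB signal as a term, 1 probe set per gene, their mean, and leaving out each sample. Values within array sets were added after seeing the data.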

Additional observations from a re-analysis of the deposited data

How the results depend on the processing

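EPC1 234969_s_at differed by 1.98, by 1.85 to 2.17 with 1 sample left out, and by 1.71 and 2.31 within array sets A and B. Member probe sets past the threshold outside EPC1 numbered 0 in all 15 alternatives. Probe sets past the threshold over the whole table numbered 1, and 0 with the replicate block, 0 among those above the median level, 5 with the array set as a block, 4 with the ACTB signal as a covariate, and 0 to 2 with 1 sample left out; the cause was not tested. Whether the replicate numbers pair the samples was not settled. Deviations from the group means correlated by 0.34, 0.27 and -0.16 over probe sets for numbers 1, 2 and 3. SP 1 and SP 2 correlated best with the non-SP sample of their own number, whereas SP 3 correlated best with non-SP 2 (0.30). Such deviations also carry the array sets, so they cannot tell whether samples were paired. With the replicate block 0 member probe sets passed. Separated groups numbered 5 of 28 with EPC1, which was chosen for its difference, and 2 of 24 (8.33%) without it, against 12.5% of all probe sets. With 1 sample left out they numbered 5 to 11 of the 28, where fewer samples separate more easily. The share over all probe sets was not counted there. The member median of 0.036 turned to -0.054 with array weights and ran from -0.083 to 0.088 with 1 sample left out.

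Differences near 0 changed sign, and the cause was not tested. With array weights these were EP400 212375_at (-0.053), EP400 212376_s_at (-0.050) and ING3 242293_at (-0.056), with the ACTB covariate EP400 212375_at (-0.013), with the array set as a block MORF4L1 217982_s_at (0.023), and with probe sets averaged per gene ING3 (-0.057) and MEAF6 (0.099). With 1 sample left out the ranges were -0.13 to 0.26 for EP400 212375_at, -0.21 to 0.23 for EP400 212376_s_at, -0.14 to 0.026 for EP400 230628_at, -0.075 to 0.48 for ING3 205070_at, -0.28 to 0.28 for ING3 230719_at, -0.16 to 0.40 for ING3 242293_at, -0.23 to 0.068 for KAT5 214258_x_at, -0.092 to 0.018 for MORF4L1 217982_s_at and -0.19 to 0.018 for MORF4L1 221381_s_at. The deposited values carry no detection calls, so how far BRD8 210352_at, above background on 5 of 6 arrays, lies above it is uncertain.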

Other observations

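Genes of the other MYST-type acetyltransferase complexes, only some of which share MEAF6 and relatives of ING3 with NuA4, mostly had small differences above 0, and none passed after adjustment. Of 18 genes, each read at its probe set with the highest mean, 15 had a difference above 0 and the median was 0.13. Over all genes, 8950 of 19775 were above 0 and the median was -0.023. None passed an adjusted p of 0.05 (limma, smallest adjusted p = 0.612), and 2 were higher and 0 lower at an unadjusted p under 0.05, where 3.07% of all genes were higher and 3.71% lower. JADE2, a scaffold of the KAT7 complex, had levels of 6.58, 6.36 and 6.58 in SP cells and 6.19, 6.01 and 6.15 in non-SP cells, and differed by 0.39 (SE 0.12). MSL2, a subunit of the KAT8 complex that acetylates histone H4, had levels of 8.23, 7.75 and 7.79 in SP cells and 7.43, 6.65 and 7.46 in non-SP cells, and differed by 0.74 (SE 0.26). At the probe set with the highest mean, KAT5 and the catalytic subunits KAT6A, KAT6B, KAT7 and KAT8 had differences between -0.092 and 0.22. The dimmer KAT5 probe sets 206689_x_at and 209192_x_at differed by -0.23 and -0.19.

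SAGA, ATAC and p300-type acetyltransferase genes, at 1 probe set per gene, had 9 of 14 differences above 0 and a median of 0.058. Over all genes, 8950 of 19775 were above 0 and the median was -0.023. At an unadjusted p under 0.05, 0 of the 14 passed (limma, smallest adjusted p = 0.746), where 3.07% of all genes were higher and 3.71% lower. SUPT7L, a SAGA subunit, differed by -0.28 (SE 0.12) and ATXN7, another, by 0.47 (SE 0.23).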
